A study of Mus musculus with 17 samples.

Results

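The Cyp2c genes code for cytochrome P450 enzymes of the 2C subfamily, which in the mouse lie on chromosome 19, all but Cyp2c44 of those described here in a single cluster. The 10 genes described here are Cyp2c55, Cyp2c65, Cyp2c66, Cyp2c29, Cyp2c38, Cyp2c40, Cyp2c68, Cyp2c69, Cyp2c44 and Cyp2c70. They were chosen by their names on an expression array of the mouse colon, which carries 37324 gene or transcript names. The array reads them with 12 probes, namely 2 for Cyp2c55, 2 for Cyp2c44 and 1 for each of the others. For each gene, the probe with the highest mean in the authors' table of log2 values was used. All 10 genes passed the filter on dim probes. In the colon all of these transcripts but Cyp2c38 and Cyp2c70 varied more between arrays than nearly all other probes, and no difference by treatment or genotype passed the test against that spread. Cyp2c65 and Cyp2c66 were high where Cyp2c29, Cyp2c40, Cyp2c68 and Cyp2c69 were low. Over all 17 arrays Cyp2c55 followed neither set closely, with a Pearson's r of 0.363 with Cyp2c65. That r was 0.994 in the 9 knockout arrays and 0.291 in the 8 wild-type arrays, a split made after the values were seen.

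P450 enzymes of this subfamily sit in the membrane of the endoplasmic reticulum, take electrons from the reductase Por, and hydroxylate or epoxidize lipids, drugs and steroids. Arachidonic acid is a well-known substrate, and its epoxides are then hydrolysed by epoxide hydrolases. In the liver, several Cyp2c genes are known targets of the pregnane X receptor (PXR, coded by Nr1i2) and of its relative CAR, nuclear receptors that bind drugs and other foreign compounds.

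RNA of the colon of C57Bl6/J male mice was measured in 4 groups. WT CONT (n = 4) and WT PCN (n = 4) were wild-type mice, bought at 6 weeks of age. Pxr-/- CONT (n = 5) and Pxr-/- PCN (n = 4) were mice without a working Pxr gene, backcrossed to the same strain and bred in the facility of the authors, with an age that the sources used here do not give. All mice were left to settle for 2 weeks. Pregnenolone 16α-carbonitrile (PCN), a ligand of rodent PXR, was injected into the peritoneum at 100 mg/kg each day for 4 days in corn oil, and CONT mice received the oil alone. Every group was killed 6 h after the last injection, at an hour when the labels call the mice fed and the text of the study semi-fasted. Genotype and breeding facility cannot be told apart, since no wild-type mouse was bred there. The stretch of colon taken for RNA is not given in the sources used here. Nothing in the labels says that arrays of a group came from separate mice, so p-values measure the spread between arrays.

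The 17 arrays lay on 8 slides and were washed in 2 baths, and 62.7% to 71.0% of the probes were well above the local background. Markers of colonocytes and goblet cells were high on all arrays, with list means of 14.73 to 15.35 and 16.88 to 17.47 on the log2 scale. Of 8 genes of small intestinal enterocytes, Alpi, Rbp2, Fabp2, Fabp6 and Slc5a1 were well above background on 17 arrays, Sis on 9, Lct on 6 and Apoa4 on 1. WT PCN replicate 4 and Pxr-/- PCN replicate 2 were near-identical (SD of the log2 differences over all probes 0.172), as were WT PCN replicate 3 and Pxr-/- CONT replicate 2 (0.198). Every other pair was at 0.297 or above. Differences of the Cyp2c genes between groups are therefore given over all 17 arrays and over the 13 that remain without these 4. Liver transcripts (mean of 8 genes) were at 10.65 in WT CONT replicate 5, 8.83 in WT PCN replicate 1 and 8.38 in WT PCN replicate 2, against 6.40 to 7.41 in the other arrays. Albumin (Alb) was at 12.68, 9.21 and 9.50 in those 3 arrays, and the liver gene Fga was well above background on 1 array of 17. Pancreatic transcripts were at 17.70 in WT CONT replicate 4, 15.89 in WT PCN replicate 3, 15.83 in Pxr-/- CONT replicate 2 and 11.81 in WT PCN replicate 1, and at most 6.97 elsewhere. The Nr1i2 probe was still read in the knockout, where WT CONT had a mean of 12.09 (SD 0.15), WT PCN 11.63 (SD 0.64), Pxr-/- CONT 11.07 (SD 0.46) and Pxr-/- PCN 11.48 (SD 0.42). WT CONT arrays lay at 11.97 to 12.31 and Pxr-/- CONT arrays at 10.39 to 11.61, without overlap, as for 5.39% of all probes. Pxr-/- PCN arrays lay at 10.95 to 11.93. WT PCN replicates 1 to 4 were at 12.44, 11.85, 11.10 and 11.15, all but replicate 1 within the Pxr-/- range. With this overlap, the Nr1i2 level alone does not settle the label of an array, and what it says of the labels was not tested.

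The probes are 60 bases long and, in the array's annotation (build mm9), all lie on chromosome 19. The annotation places each on the genome but names neither an exon nor an untranslated region. Sequences are shown for the 3 genes on which the results turn and for a pair of probes that are nearly alike. Cyp2c55 is read on the plus strand at chr19:39116674-39116733, and its second probe lies upstream at chr19:39110063-39110122. Cyp2c65 is read at chr19:39168290-39168349 and Cyp2c66 at chr19:39261183-39261242, both on the plus strand. The Cyp2c68 probe, on the minus strand at chr19:39763420-39763479, shares 55 of 59 overlapping bases with the probe of Cyp2c67, a further family member at chr19:39683429-39683488. Capitals mark the 4 bases that differ in this overlap, and no other pair of the family's probes shares more than 26 bases.
Cyp2c55: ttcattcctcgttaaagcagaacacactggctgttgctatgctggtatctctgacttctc
Cyp2c55, second probe: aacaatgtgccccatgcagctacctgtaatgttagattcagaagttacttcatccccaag
Cyp2c65: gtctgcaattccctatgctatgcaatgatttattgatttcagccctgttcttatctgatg
Cyp2c66: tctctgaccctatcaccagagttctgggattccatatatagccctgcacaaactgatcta
Cyp2c67: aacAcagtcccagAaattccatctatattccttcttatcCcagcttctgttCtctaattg
Cyp2c68: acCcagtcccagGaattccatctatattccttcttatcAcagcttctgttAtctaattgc
With 4 differing bases, signal of Cyp2c67 and Cyp2c68 may be shared, and the Cyp2c68 level is uncertain in that respect. The probe of Cyp2c40 spans from 39861388 to 39877026 on the same chromosome, 15639 bases for a probe of 60, so that it joins separate stretches of the gene.

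Values are log2 of the median spot intensity after quantile normalization, and a level of 1 probe is compared between arrays, never with the level of another probe. The chosen probes were well above background on 17 of 17 arrays for 9 genes and on 16 for Cyp2c44. Cyp2c65 spanned 6.43 log2 units between its lowest and highest array, Cyp2c66 6.16 and Cyp2c55 6.16. Their SDs over the 17 arrays stood at percentiles 99.8, 99.8 and 99.6 of the 38703 probes tested. Cyp2c40 spanned 4.03 units, Cyp2c68 4.01, Cyp2c69 3.75, Cyp2c29 3.36 and Cyp2c44 2.35, with SDs at percentiles 97.4 to 99.3. Cyp2c70 spanned 1.33 units (percentile 82.7) and Cyp2c38 0.71 (percentile 56.0). All but Cyp2c70 and Cyp2c38 were thus among the most variable probes of the array.

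**Figure D1:**
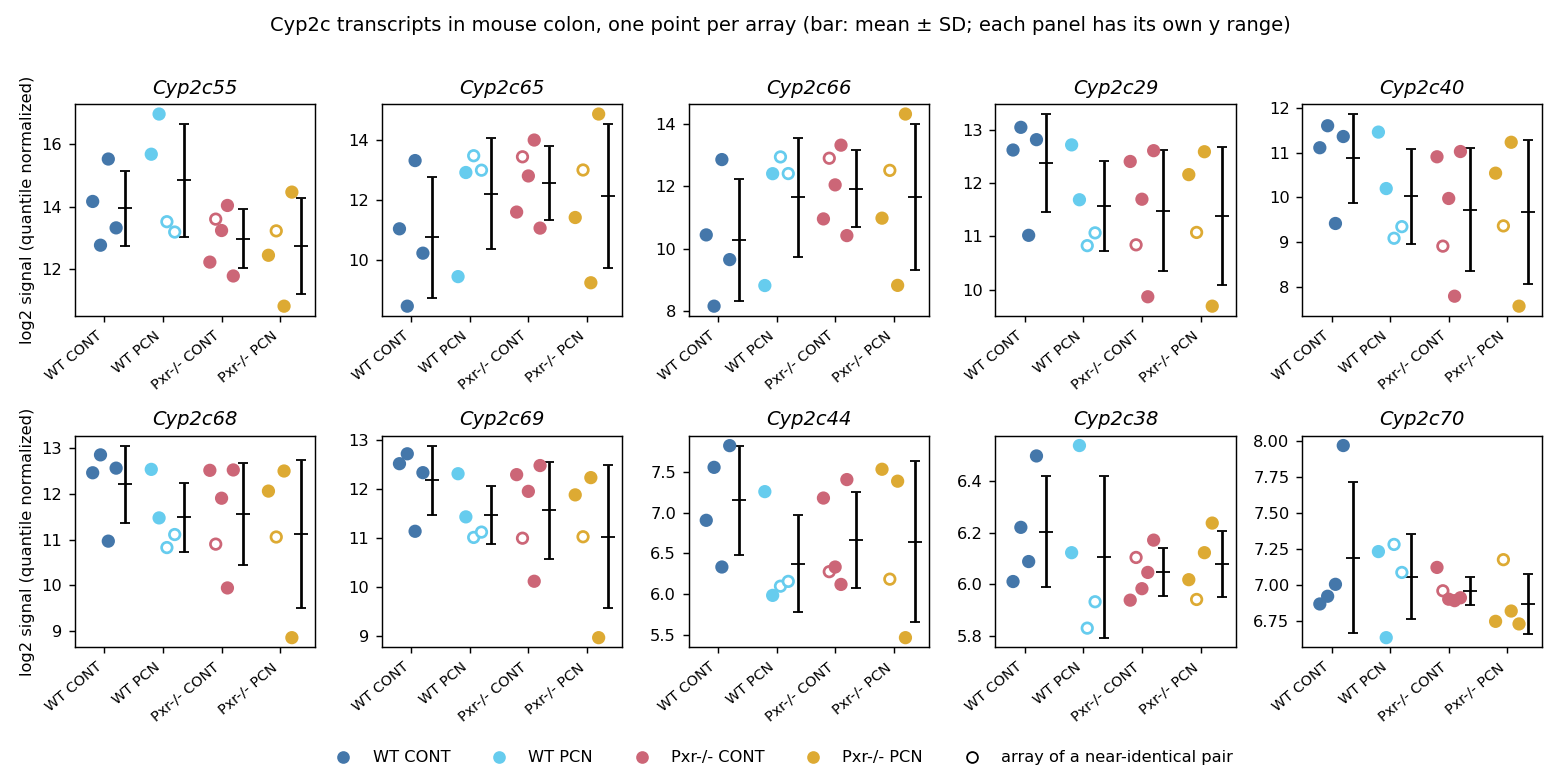
Log2 signal of the 10 Cyp2c genes (y axis, a separate range in each panel) in each array of the 4 groups (x axis), with mean and SD as bars and the 4 arrays of the near-identical pairs as open circles. Cyp2c65 reaches from 8.46 to 14.88 and Cyp2c38 from 5.83 to 6.54, and no panel shows a group that lies clear of the others.

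Cyp2c65 and Cyp2c66 are neighbours known as P450 genes of the intestine. In WT CONT replicates 2 to 5, Cyp2c65 was at 11.04, 8.46, 13.33 and 10.23. In WT PCN replicates 1 to 4 it was at 9.45, 12.93, 13.49 and 13.01. Replicate 1 lay more than 3 units under the other WT PCN arrays, and the WT CONT arrays were spread over nearly 5 units. Pxr-/- CONT replicates 1 to 5 were at 11.60, 13.45, 12.81, 14.01 and 11.07, and Pxr-/- PCN replicates 1 to 4 at 11.42, 13.01, 9.24 and 14.88. The highest and the lowest of the knockout arrays thus both carried the same label, Pxr-/- PCN. Cyp2c66 followed Cyp2c65 from array to array, from 8.15 in WT CONT replicate 3 to 14.31 in Pxr-/- PCN replicate 4. Over the 17 arrays Pearson's r of this pair was 0.998 and Spearman's rho 0.993, and r was 0.999 in each wash bath. The SD of their log2 difference was 0.11, against SDs of 1.84 and 1.80 for the genes themselves.

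Cyp2c29, an abundant P450 of the liver that epoxidizes arachidonic acid, ran the other way. In WT CONT replicates 2 to 5 it was at 12.62, 13.05, 11.02 and 12.82, and in WT PCN replicates 1 to 4 at 12.72, 11.69, 10.83 and 11.07. In Pxr-/- CONT replicates 1 to 5 it was at 12.41, 10.84, 11.70, 9.87 and 12.61, and in Pxr-/- PCN replicates 1 to 4 at 12.16, 11.08, 12.59 and 9.69. The arrays lowest in Cyp2c29, Pxr-/- PCN replicate 4 and Pxr-/- CONT replicate 4, were the highest in Cyp2c65. Cyp2c40, known from the large intestine as a hydroxylase of arachidonic acid, ranged from 7.57 to 11.60, Cyp2c68 from 8.85 to 12.86 and Cyp2c69 from 8.97 to 12.72, each with its lowest value in Pxr-/- PCN replicate 4 and its highest in WT CONT replicate 3. Among these 4 genes r lay between 0.96 and 0.997 (rho 0.944 to 0.98) for the 6 pairs. Their r with Cyp2c65 or Cyp2c66 lay between -0.928 and -0.855 (rho -0.98 to -0.922). Without the 2 arrays farthest from the median of the gene on the x axis these ranges were 0.957 to 0.994 and -0.937 to -0.872, within a wash bath 0.966 to 0.997 and -0.967 to -0.854, and over 13 arrays 0.962 to 0.997 and -0.914 to -0.842. Cyp2c44, listed in RefSeq as Cyp2c23 and known as an epoxygenase of kidney and vessels, ranged from 5.47 to 7.82 and went with the Cyp2c29 set (r 0.845 to 0.89). Its second probe was well above background on 5 arrays and gives no check.

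These coefficients describe 17 arrays that share a normalization and include the near-identical pairs, and 45 pairs of genes were computed. Cyp2c67, the further family member, ranged with the same set: r was 0.993 with Cyp2c68, whose probe is nearly alike, and 0.999 with Cyp2c69, whose probe shares at most 26 bases with it. The SD of the log2 difference of Cyp2c67 and Cyp2c69 was 0.058. Probes were compared with each other and not with the transcripts of the other genes. Few shared bases between probes therefore do not show separate signals, and signal shared within this set was not tested. In bulk tissue, fewer cells of a type and less RNA per cell cannot be told apart.

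**Figure D2:**
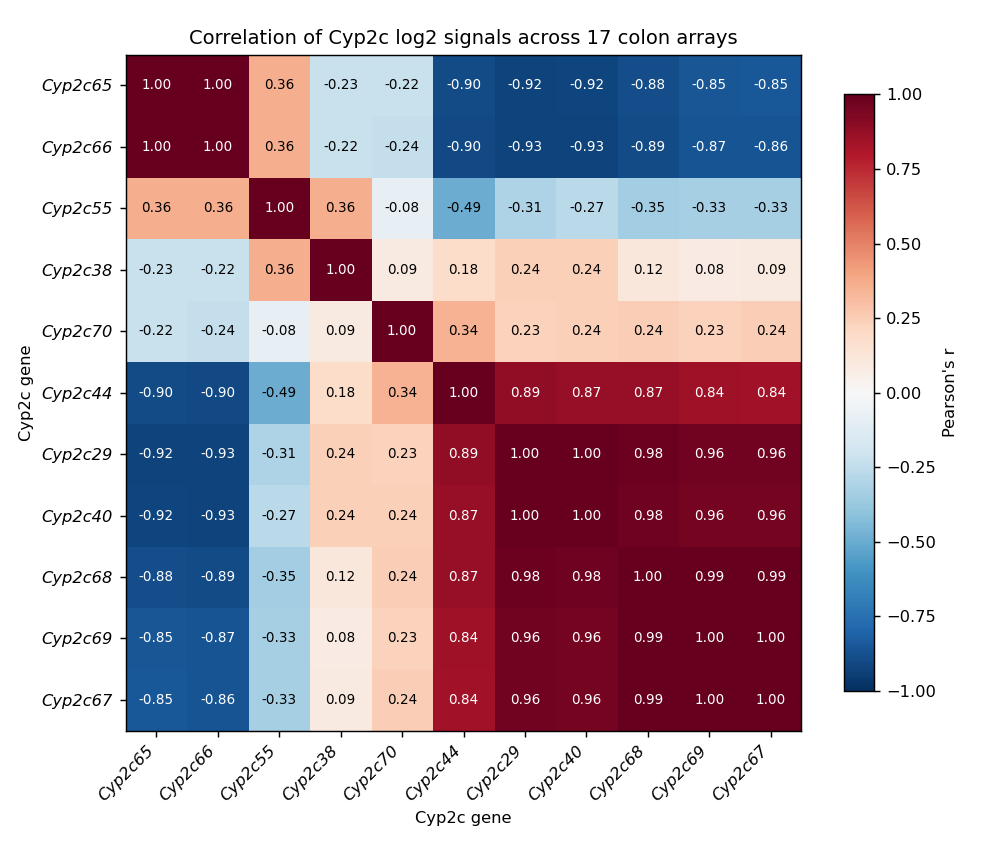
Pearson's r between the log2 signals of 11 Cyp2c genes over 17 colon arrays, with genes on both axes and colour from -1 (blue) to 1 (red). Cyp2c65 and Cyp2c66 (r 0.998) are opposed to the set from Cyp2c44 to Cyp2c67, while Cyp2c55, Cyp2c38 and Cyp2c70 follow neither set closely.

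Both sets varied with transcripts that mark position along the gut and with those of other tissues. Hoxb13, Hoxd10, Hoxd11, Hoxd12 and Hoxd13 are posterior Hox genes, which are expressed toward the anal end of the intestine. Hoxb13 and Hoxd13 were well above background on 17 arrays, Hoxd10 on 16, Hoxd12 on 11 and Hoxd11 on 4. The mean log2 signal of these Hox genes ranged from 6.39 in Pxr-/- PCN replicate 4 to 10.31 in Pxr-/- PCN replicate 3, and Hoxb13 alone from 7.53 to 16.09. The 4 groups overlapped in it, with a range from 7.33 to 9.44 in WT CONT, from 7.29 to 10.15 in WT PCN, from 6.98 to 8.89 in Pxr-/- CONT and from 6.39 to 10.31 in Pxr-/- PCN. Cyp2c65 fell as this mean rose (r -0.961, rho -0.975, n = 17), and r was -0.967 without the 2 arrays farthest from the median of the Hox mean, -0.946 and -0.986 in baths 1 and 2, and -0.955 over 13 arrays. Cyp2c66 gave an r of -0.966. The genes of the Cyp2c29 set and Cyp2c44 rose with it, with r from 0.831 to 0.894 and, without the 2 farthest arrays, from 0.925 to 0.955. A list of small intestinal enterocyte genes moved in the opposite way, with r of 0.846 for Cyp2c65 and -0.94 for Cyp2c68, although its mean covered no more than 7.91 to 9.47. Pxr-/- PCN replicate 4, lowest in the posterior Hox mean, was highest in the mean of this list. That array was lowest in Hoxb13 (7.53), Hoxd12 (4.74) and Hoxd13 (6.03). It was not low in Hoxd10 (8.03, all arrays 5.50 to 8.80) or Hoxd11 (5.61, all arrays 4.76 to 6.78). The mean of the liver list gave an r of 0.602 with Cyp2c29 (rho 0.904) and -0.553 with Cyp2c65 (rho -0.897), and in the 9 Pxr-/- arrays, where that mean stayed between 6.40 and 7.37, r was 0.968 and -0.942. Of the liver list, Serpina1a, Ttr and Apoa2 were well above background on 17 arrays and Alb on 16. Ahsg was so on 12, Cps1 on 11, Fgb on 5 and Fga on 1, so the mean includes values near background. It is thus an uncertain measure of liver RNA. Smooth muscle and goblet cell means gave an r of 0.651 and 0.645 with Cyp2c65 and -0.617 and -0.48 with Cyp2c29, and those with Cyp2c65 differed between baths, at 0.906 and 0.942 in bath 1 against 0.366 and 0.297 in bath 2. The part of the sampled position and of these tissues in the Cyp2c values was not tested.

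**Figure D3:**
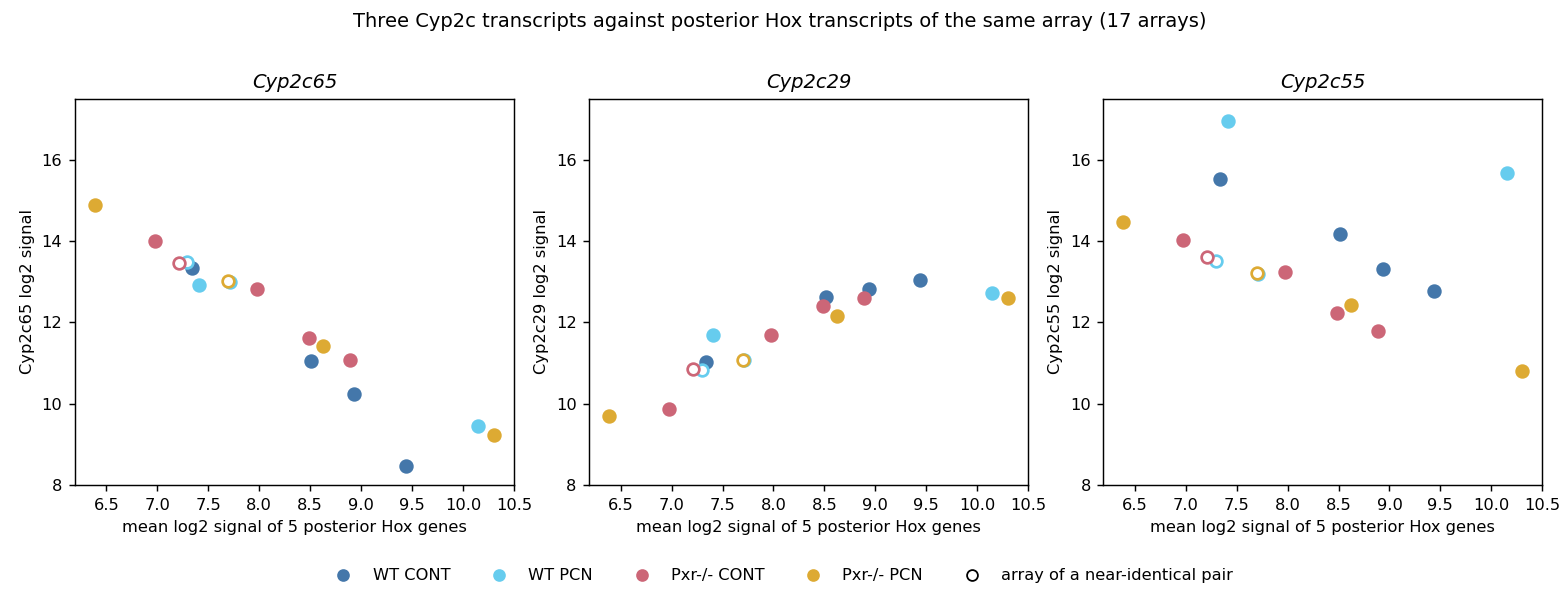
Log2 signal of Cyp2c65, Cyp2c29 and Cyp2c55 (y axis) against the mean log2 signal of 5 posterior Hox genes (x axis) in the same array, coloured by group, with the arrays of the near-identical pairs as open circles. Over the 17 arrays Cyp2c65 falls along the x axis (r -0.961) and Cyp2c29 rises (r 0.887), and Cyp2c55 shows a band of Pxr-/- arrays with WT arrays on or above it.

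Because members of a set moved together, their promoters were searched, from 250 bases before to 50 after the start, as RefSeq gives them in GRCm38.p6, a later build than that of the probes. Of the 10 genes, 9 were matched, and Cyp2c44 was not. The letters CAAAGTC, the core of the motif of the liver and gut factor HNF4, were found on either strand in 7 of these 9 promoters and in 4.44% of all 32851 promoters of the same length. The longer form CAAAGTCCA, which contains the core, was found in 5 of 9 against 0.475%. Each line below gives 39 bases on the strand of the gene, with the core in capitals, for the genes of both sets and for Cyp2c70.
Cyp2c65: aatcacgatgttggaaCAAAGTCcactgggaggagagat
Cyp2c66: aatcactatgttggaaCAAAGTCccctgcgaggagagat
Cyp2c29: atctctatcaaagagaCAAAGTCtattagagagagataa
Cyp2c40: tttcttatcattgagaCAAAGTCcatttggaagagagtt
Cyp2c68: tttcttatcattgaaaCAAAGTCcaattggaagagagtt
Cyp2c69: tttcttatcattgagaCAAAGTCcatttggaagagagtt
Cyp2c70: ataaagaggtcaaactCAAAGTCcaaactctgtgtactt
The windows lie at chr19:39060874-39060912 for Cyp2c65, chr19:39113778-39113816 for Cyp2c66, chr19:39286960-39286998 for Cyp2c29, all on the plus strand, and on the minus strand at chr19:39812837-39812875 for Cyp2c40, chr19:39741156-39741194 for Cyp2c68, chr19:39886822-39886860 for Cyp2c69 and chr19:40187328-40187366 for Cyp2c70. The core begins 116 and 104 bases before the start in Cyp2c65 and Cyp2c66, and 45 to 109 bases before it in the other 5. It was found in genes of both sets and in neither Cyp2c55 nor Cyp2c38. Of 14 promoters of the whole family, 11 held it, among them those of Cyp2c37 and Cyp2c39, well above background on 3 and 0 arrays. The genes belong to 1 family, and the 39 bases of Cyp2c40 and Cyp2c69 are the same, so the matches are not independent. The hexamers AGTTCA and AGGTCA, to which PXR and related receptors bind as repeats, were each found in 2 of 9 promoters (14.0% and 16.3% of all), and the direct repeat of AGTTCA with 4 bases between its copies in none (0.0122%). The posterior Hox motif CCAATAAA was found in none of the 9 (1.12%). The letters TATAAA of the TATA box were found in 8 of the 9 (13.6%). AGATAA, the GATA motif, was found in 3 of the 9 (11.2%), and TTTATG, the Cdx motif, in none (11.9%). The direct repeat of AGTTCA with 3 bases between its copies was also found in none (0.0%). These are all the motifs searched, and sequences are shown only for the HNF4 core. A match describes letters in this window only. Hnf4a itself stayed between 15.41 and 15.71 on all arrays.

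Cyp2c55 is a hydroxylase of arachidonic acid whose gene is known to be inducible by PCN. In WT CONT replicates 2 to 5 it was at 14.17, 12.76, 15.53 and 13.32, and in WT PCN replicates 1 to 4 at 15.68, 16.97, 13.52 and 13.19. WT PCN replicates 1 and 2 were the highest of all 17 arrays, whereas replicates 3 and 4, those of the near-identical pairs, lay within the range of the controls. Pxr-/- CONT replicates 1 to 5 were at 12.22, 13.60, 13.23, 14.04 and 11.78, and Pxr-/- PCN replicates 1 to 4 at 12.44, 13.22, 10.81 and 14.46. All groups overlapped. The second probe gave the same order of WT PCN arrays, at 14.67, 15.89, 12.37 and 11.92.

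In wild-type mice, Cyp2c55 was 1.01 higher with PCN on the log2 scale (SE 0.92, limma, adjusted p = 0.956, exact two-sided permutation p = 0.429). In Pxr-/- mice it was -0.19 (SE 0.86, limma, adjusted p = 0.981, exact p = 0.778), and -0.27 over 13 arrays. Pxr-/- PCN was lower than WT PCN by a difference of -2.22 (95% CI -4.18 to -0.26, limma, unadjusted p = 0.0289, adjusted p = 1.00, exact p = 0.171), the only one of the 50 differences of the 10 genes at an unadjusted p under 0.05. Over 13 arrays, the 2 remaining WT PCN arrays had a mean of 16.32 against 13.94 ± 1.20 (SD, n = 4) in WT CONT and did not overlap with it. The difference was then 2.38 (95% CI 0.10 to 4.66, limma, unadjusted p = 0.0424, adjusted p = 1.00, exact p = 0.133, where 0.0667 is the smallest that 2 against 4 arrays allow). Of all probes, 11.2% did not overlap between these groups. Against the 3 remaining Pxr-/- PCN arrays, at 12.57 ± 1.83 (SD, n = 3), the difference was -3.77 (limma, unadjusted p = 0.00571, adjusted p = 0.505, exact p = 0.2, smallest possible 0.1), with no overlap, as for 19.1% of all probes. The PCN effect in Pxr-/- minus that in WT was -1.21 (SE 1.25) over 17 arrays and -2.65 (SE 1.38) over 13, with limma's adjusted p = 0.870 and 1.00. WT PCN replicates 1 and 2 are also among the 3 arrays highest in liver transcripts. Without those 3 arrays the PCN difference in WT is that of replicates 3 and 4 and was -0.63. WT CONT replicate 5, with the highest liver signal, was at 13.32, within the range of the other WT CONT arrays. As a control it received no PCN, so it gives no value for liver RNA of mice given PCN. The part of liver RNA in the Cyp2c55 values was not tested.

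Cyp2c55 followed neither set over 17 arrays (r 0.363 with Cyp2c65 and -0.309 with Cyp2c29, both within -0.495 to 0.363 for its 9 pairs). Within the 9 arrays labelled Pxr-/- it rose with Cyp2c65 (r 0.994, rho 0.967, and r 0.99 without the 2 farthest arrays) and fell as the posterior Hox mean rose (r -0.987, rho -0.967, and r -0.972 without the 2 farthest). In the 8 arrays labelled WT the corresponding r were 0.291 and -0.176. These 8 pool CONT with PCN and include WT PCN replicates 3 and 4 of the near-identical pairs. Within WT CONT, Cyp2c55 and Cyp2c65 gave the same order of arrays. Both were lowest in replicate 3 (12.76 and 8.46), then rose through replicates 5 and 2 to replicate 4 (15.53 and 13.33). Whether these coefficients differ between genotypes was not tested, and the split was looked at after the values had been seen. The log2 value of Cyp2c55 minus that of Cyp2c65 in the same array, whose size depends on the probes and has a meaning only between arrays, was 3.12, 4.31, 2.20 and 3.09 in WT CONT replicates 2 to 5. In Pxr-/- CONT replicates 1 to 5 it was 0.62, 0.15, 0.42, 0.02 and 0.71, and in Pxr-/- PCN replicates 1 to 4 it was 1.02, 0.21, 1.57 and -0.42. Every WT CONT array was thus above every Pxr-/- array on this scale. WT PCN replicates 1 and 2 were at 6.23 and 4.04, near or above the WT CONT arrays, and replicates 3 and 4 at 0.03 and 0.18, among the Pxr-/- arrays with which they are near-identical. Set against Cyp2c66 the values were 2.67 to 4.61 in WT CONT, 0.15 to 1.99 in the 9 Pxr-/- arrays, 6.87 and 4.57 in WT PCN replicates 1 and 2, and 0.58 and 0.78 in replicates 3 and 4. Cyp2c66 followed Cyp2c65 (r 0.998) and so gives no second check. Set against Cyp2c29 the groups overlapped, at -0.28 to 4.50 in WT CONT, -0.83 to 4.17 in Pxr-/- CONT and -1.78 to 4.77 in Pxr-/- PCN. The share of all pairs of probes whose difference separates these groups was not computed. These differences were formed after the values had been seen and are a description without a test.

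The 5 comparisons were PCN against CONT in each genotype, Pxr-/- against WT in each treatment, and the difference of the PCN effects between genotypes, with a gene called at an adjusted p of at most 0.05 and a fold over 1.5 (limma). PCN in WT called 0 of 10 genes (0% of 38703 probes), PCN in Pxr-/- 0 (0.00517%), and genotype in CONT, genotype in PCN and PCN by genotype 0 each (0%). At an unadjusted p under 0.05 they held 0, 0, 0, 1 and 0 of the 10 genes, against 4.66%, 7.35%, 12.7%, 3.28% and 5.38% of all probes. None of 40 exact permutation tests, 4 for each gene, was under 0.05, and the lowest was 0.143. The groups overlapped for all 10 genes in the 4 comparisons of groups, whereas 2.64%, 2.8%, 5.39% and 1.48% of all probes did not overlap in PCN in WT, PCN in Pxr-/-, genotype in CONT and genotype in PCN. Over 13 arrays 0 of 10 genes were called in each comparison as well, with 0.0491%, 0.0517%, 0%, 0.0207% and 0.00258% of all probes called, and 1, 0, 0, 1 and 0 genes at an unadjusted p under 0.05, each time Cyp2c55 (4.68%, 7.19%, 10.1%, 7.56% and 2.95% of all probes). Groups did not overlap for 1, 1, 0 and 1 genes in the 4 comparisons of groups, against 11.2%, 6.62%, 6.72% and 19.1% of all probes. The comparisons in WT and in CONT share the WT CONT arrays, and those in PCN share the PCN arrays, so their values are not independent.

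The estimates of the other genes were wide. Cyp2c65 differed by 1.43 with PCN in WT (95% CI -1.30 to 4.16, adjusted p = 0.956) and by 1.83 between Pxr-/- CONT and WT CONT (95% CI -0.72 to 4.39, adjusted p = 0.532). Cyp2c66 differed by 1.34 and 1.66 in the same comparisons. Over 13 arrays the differences with PCN in WT were smaller, at 0.42 for Cyp2c65 (95% CI -3.29 to 4.13) and 0.33 for Cyp2c66, and those between genotypes in CONT were 1.61 and 1.41. For the Cyp2c29 set the signs were opposite over 17 arrays, with Cyp2c40 at -0.79 with PCN in WT (95% CI -2.65 to 1.07) and -1.17 between genotypes in CONT (95% CI -2.92 to 0.57), and over 13 arrays at -0.04 and -0.95. The median difference of the 5 posterior Hox genes was -0.38 with PCN in WT and -0.73 between genotypes in CONT, with 0 of 5 called. Over 13 arrays these medians were 0.32 and -0.51, so that the Hox median and the Cyp2c65 difference with PCN in WT then had the same sign. With PCN in Pxr-/- the 10 genes lay between -0.55 (Cyp2c69) and 0.04 (Cyp2c38), and SEs reached 1.20, and over 13 arrays between -0.67 (Cyp2c69) and 0.09 (Cyp2c38). The intervals of Cyp2c55, Cyp2c65 and Cyp2c66 include changes of more than 2 log2 units, so an absence of change is not shown. The median difference over the 10 genes was -0.39, -0.14, -0.56 and -0.24 in PCN in WT, PCN in Pxr-/-, genotype in CONT and genotype in PCN, with the median over all probes between -0.0001 and 0.0089. Over 13 arrays these medians were -0.11, -0.26, -0.43 and -0.48.

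**Figure D4:**
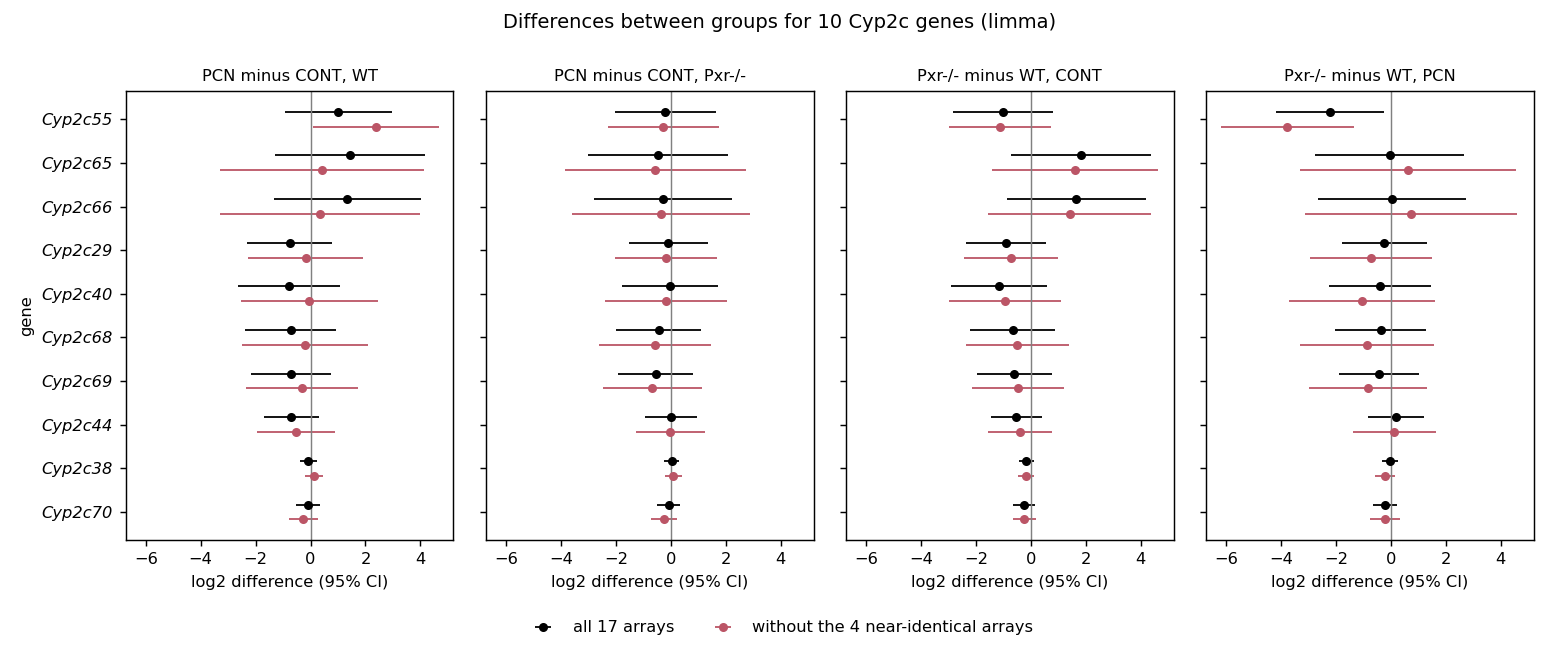
Log2 differences (x axis) with 95% confidence intervals from limma for the 10 Cyp2c genes (y axis) in 4 comparisons, over all 17 arrays (black) and without the 4 near-identical arrays (red). Intervals of Cyp2c65 and Cyp2c66 reach from -3.01 to 4.39 over 17 arrays, and Cyp2c55 in Pxr-/- minus WT under PCN (-2.22 and -3.77) is the one whose interval leaves out 0 in both fits.

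Cyp2c38 and Cyp2c70 followed neither set. Cyp2c38, an epoxygenase, stayed between 5.83 and 6.54. Its largest difference in the 5 comparisons was -0.17 over 17 arrays (genotype in CONT) and -0.21 over 13 (genotype in PCN). Cyp2c70, the liver enzyme that makes muricholic acids from chenodeoxycholic acid, was at 6.87, 6.92, 7.01 and 7.97 in WT CONT replicates 2 to 5, with the highest value in the array that was also highest in liver transcripts. Elsewhere it lay between 6.64 and 7.28. Its difference between genotypes in CONT was -0.25 (SE 0.19, limma, adjusted p = 0.600), -0.23 over 13 arrays and 0.018 without that array. The part of liver RNA in this value was not tested. Over 13 arrays, Cyp2c70 did not overlap between Pxr-/- PCN (3 arrays) and Pxr-/- CONT (4 arrays), with a limma difference of -0.24 (adjusted p = 0.896, exact p = 0.0286, the smallest possible), as for 6.62% of all probes. Of the 6 other Cyp2c names on the array, Cyp2c67 was tested. Cyp2c37 was well above background on 3 arrays, the 3 highest in liver transcripts (6.80 in WT CONT replicate 5, 5.38 in WT PCN replicate 1 and 5.47 in WT PCN replicate 2), and Cyp2c50 and Cyp2c54 on WT CONT replicate 5 alone.

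Other genes of the pathway were taken as lists of 5 electron donors (Por and the cytochrome b5 system), 10 genes of arachidonic acid release and other oxygenases, 10 nuclear receptors and liver-enriched factors and 4 epoxide hydrolases. Some of them also varied widely between arrays, such as the phospholipase Pla2g2a, from 6.82 to 10.67, and the fatty acid receptor Ppara, from 9.86 to 12.69, whereas Por ranged from 13.32 to 14.04. None of the 5, 8, 10 and 4 genes of these lists that were tested was called in any comparison with 17 or with 13 arrays. Por differed by 0.24 with PCN in WT (SE 0.14) and by 0.19 in Pxr-/- (SE 0.13). Ephx3, an epoxide hydrolase of surface epithelia, was 0.45 higher with PCN in WT (SE 0.14, limma, unadjusted p = 0.00634, adjusted p = 0.956) and 0.06 in Pxr-/- (SE 0.13). Ephx1 and Ephx2, which hydrolyse most epoxides in other tissues, spanned 12.66 to 13.44 and 11.66 to 12.56.

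Outside the family, the genes whose pattern over the 17 arrays was most like that of a member were sought among 32160 probes well above background on every array, with Pearson's r as the measure. For Cyp2c65 they were 1810010D01Rik (r 0.984), Pcsk1 (0.979) and Pibf1 (0.978), and for Cyp2c66 1810010D01Rik (0.987), Pibf1 (0.977) and H2-T3 (0.977). For Cyp2c29 and Cyp2c40 the most alike was Adh1 (0.974 for each), followed by Slc37a2 (0.968) and Gdf15 (0.965), respectively. Cyp2c68 and Cyp2c69 shared B3gnt7 (0.98 and 0.974) and Ggh (0.967 and 0.958). For Cyp2c55 they were Car11 (0.901), Cpt1c (0.90) and Penk (0.895), with r of 0.908, 0.932 and 0.907 over 13 arrays. Cyp2c38 and Cyp2c70 had lower highest values, led by Prpf40b (0.808) and Tert (0.837). The value for Cyp2c70 includes WT CONT replicate 5, at 7.97 against 6.87 to 7.01 in the rest of its group. All these coefficients are the highest among 32160 probes over 17 arrays, so the choice itself raises them, and none was tested.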

How the data were processed

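Cy3-labelled colon RNA was hybridized to 1-colour Agilent arrays (17 arrays). The authors deposited scanner output in which intensity is the median brightness of each spot, not normalized between arrays (Agilent Feature Extraction 10.10.1.1, from the submitters' processing notes). The authors deposited log2 values of 36695 probes as well, used to choose the probe of each gene and as an alternative. Here, outlier spots were dropped from 59305 spots, and the log2 intensities were brought to a common distribution by quantile normalization, with repeated spots averaged to 56605 probes. The 38703 probes well above background on at least 4 arrays were fitted with group and wash bath (limma 3.58.1, R 4.3.3) and adjusted by Benjamini-Hochberg. The study's CrossNorm step is replaced by quantile normalization. Single genes were also compared by exact two-sided permutation of array labels, without the bath. Named genes were the 10 members, Nr1i2, the 3 most alike genes of each member, and marker genes on which a result turned, whereas Por, Ephx1, Ephx2, Ephx3, Hnf4a, Pla2g2a and Ppara were named after their values were seen. Members, lists and tests were chosen with earlier results of these data known. The fit was tested on simulated data. Arrays have no read depth, and their number limits the precision.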

Additional observations from a re-analysis of the deposited data

Results flagged for a closer look

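In groups of 4 or 5 arrays, 4 of 40 values per gene and group stood far from the rest, where chance gives about 1 in 20 for independent values. Those of Cyp2c65, Cyp2c66 and Cyp2c44 lay in the same array. These genes varied together (r with Cyp2c65 0.998 for Cyp2c66 and -0.896 for Cyp2c44), so the count gives no measure of an excess. In WT PCN replicate 1, Cyp2c65 was at 9.45 (the other WT PCN arrays at 12.93 to 13.49), Cyp2c66 at 8.81 (12.40 to 12.94) and Cyp2c44 at 7.26 (5.99 to 6.16). The same array had the highest posterior Hox mean of its group, 10.15. In WT CONT replicate 5, Cyp2c70 was at 7.97 (6.87 to 7.01), and liver transcripts were highest in this array.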

How the results depend on the processing

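In each of the 5 comparisons, 0 of the 10 Cyp2c genes were called under every alternative run, which were array weights, the second probe, a fit without the bath, slides as blocks (fixed, then random), normexp correction, the 75th percentile scaling, the log2 values of the authors, all probes without a filter, a fit of the compared groups alone, the 4 near-identical arrays left out, each array left out (0 to 0), and, chosen after seeing the data, the arrays highest in liver or in pancreatic transcripts left out. The replicate block also called 0. Replicate numbers were not taken to pair the samples. The r of the deviations of same-numbered arrays ran from -0.334 to 0.493 (median 0.10, 22 pairs, 11 over 0.1). For arrays of different number it ran from -0.486 to 0.618 (median -0.048, 86 pairs, 29 over 0.1). Whether the numbers pair the samples is not settled by these values. Directions were read where a difference exceeded its SE. Without the 3 arrays high in liver transcripts, Cyp2c55 with PCN in WT turned to -0.63 and Cyp2c70 between genotypes in CONT to 0.032. The latter ran from -0.35 to 0.018 over fits without 1 array, the highest without WT CONT replicate 5, and was 0.0013 in bath 1. In bath 2, which holds 1 WT PCN array, PCN in WT turned to -2.33 for Cyp2c65, -2.43 for Cyp2c66, 0.80 for Cyp2c29, 0.58 for Cyp2c69 and 0.18 for Cyp2c44, and genotype in CONT to 0.035 for Cyp2c29. In bath 1, genotype in CONT turned to 0.17 for Cyp2c55. The cause was not tested.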
